A study of Mus musculus with 14 samples.

Results

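Broad H3K27ac domains are long, nearly unbroken stretches of acetylated chromatin, and 377 of them were found in regulatory T cells of control chimeras. They were chosen by merging the 3 control H3K27ac peak lists at an overlap of 1 bp on chromosomes 1 to 19. A merged region was kept when it was 10000 bp or wider and overlapped a peak in each of the 3 lists. They made up 377 of 35642 merged regions (1.06%) but 5.86 of 53.4 Mb of merged length (11.0%). Every merged region of that width had a peak in each control list.

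H3K27ac is placed on histone H3 by acetyltransferases such as p300 and CBP at active promoters and enhancers. Where many enhancers lie side by side the mark runs together into long domains, often called super-enhancers or stretch enhancers, which are known for lying at genes that define a cell type. H3K27me3, set on the same lysine by Polycomb complexes, marks repressed chromatin, and 1 histone tail cannot carry both marks at that residue. Regulatory T cells depend on the transcription factor Foxp3 and restrain other immune cells.

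Both marks were mapped by CUT&Tag, in which an antibody guides a transposase to the mark so that the DNA beside it is cut out and sequenced. Cells were sorted by FACS from Foxp3YFPcre;wt chimeras (controls) and from Foxp3YFP-Slc31a1△;wt chimeras (knockouts), with 140000 cells per sample. Going by these genotype names, both groups carry Cre driven from Foxp3, the gene that marks regulatory T cells. By the same names, the knockouts also lack Slc31a1, which encodes the copper importer CTR1, in the cells that express this Cre. Lists from 3 control and 3 knockout samples were used for H3K27ac and from 2 and 2 for H3K27me3, of 14 samples in all. The 4 IgG samples are not analysed here. Sample titles carry chimera numbers but do not say that each sample is a separate animal, and give no age or sex. P-values therefore reflect only how far these samples differ, which may be technical. Whether Slc31a1 was deleted cannot be read from peak positions and was not examined. Values of 3 libraries are given in the order of replicates 1, 2 and 3.

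A peak list gives the position and length of enriched stretches, not the number of fragments in them. The extent of H3K27ac is therefore described as the covered share of a domain, the percentage of its bases under the peaks of a library. A domain can stay covered while its signal changes in height, which was not examined. In these bulk samples, fewer cells with the mark and less mark per cell cannot be told apart. Positions are those of mouse genome build mm39, counted from 1. No annotation of that build was used here, so domains are named by position, and H3K27ac at the marker genes of regulatory T cells or of other cells was not examined. On chromosomes 1 to 19 the H3K27ac lists contained 31337, 27410 and 29132 peaks for controls against 27651, 23633 and 20900 for knockouts. A genome-wide level was inferred from the fold and −log10 p that the authors deposited for each peak, with the shortest peak of a list taken as the fragment length. It was 12.4, 8.49 and 9.02 fragments per kb for controls against 11.0, 10.9 and 9.10 for knockouts. The background library behind the peak calls was estimated in the same way, at 16.1, 13.1 and 13.1 fragments per kb for controls against 20.7, 20.6 and 20.6 for knockouts. This second estimate rests on an even spacing of background levels, which 39.6 to 65.4% of the values used fitted. Throughout, background library and genotype cannot be told apart.

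Most domains were close to the minimum width, with a long tail. Their width had a median of 13213 bp, quartiles of 11461 and 16526 bp, and a highest value of 56122 bp. Of the 377, 125 (33.2%) were narrower than 12000 bp, 59 were 20000 bp or wider and 6 were 50000 bp or wider. These widths come from the selection itself and carry no test. Just inside the limit lay 3 domains of 10001 bp on chromosome 6, 10022 bp on chromosome 6 and 10026 bp on chromosome 2. Just outside lay 3 shared regions, 1 bp short of the limit on chromosome 15, 9987 bp on chromosome 7 and 9982 bp on chromosome 1. In the 1000 bp under the limit there were 121 shared regions, and in the 1000 bp above it 71 domains. The limit thus divides a continuous range of widths. By chromosome, domains made up the largest part of merged regions on chromosome 2 (40 of 2636, 1.52%) and chromosome 11 (41 of 2821, 1.45%), and the smallest on chromosome 18 (4 of 931, 0.430%) and chromosome 16 (6 of 1367, 0.439%).

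The 6 widest domains were covered to 93.2% or more in every library of both genotypes. The widest lay on chromosome 9 (32609865 to 32665986), with 97.6, 99.8 and 100% of its bases covered in controls against 99.8, 99.9 and 100% in knockouts. It was a single unbroken peak in 5 libraries and 3 peaks in control 1. The second lay on chromosome 7 (132361136 to 132416229, 55094 bp), with 97.8, 98.7 and 98.7% in controls against 93.2, 100 and 97.4% in knockouts. Next came a domain on chromosome 11 (32481972 to 32536941), covered to 93.7, 97.1 and 97.9% in controls against 96.4, 100 and 97.7% in knockouts. In all 3 of these domains the values of both genotypes overlapped.

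Another domain on chromosome 11 (11633187 to 11688148) was almost as long, at 54962 bp, with 95.5, 99.4 and 98.4% covered in controls against 97.2, 100 and 99.9% in knockouts. On chromosome 15 (77672499 to 77726897, 54399 bp) the shares were 98.2, 99.7 and 99.9% in controls against 99.1, 98.9 and 98.7% in knockouts. On chromosome 14 (54415107 to 54467205, 52099 bp) they were 95.1, 100 and 99.8% in controls against 96.8, 100 and 99.4% in knockouts. The strongest peak of the chromosome 14 domain had a −log10 p of 64.8 to 200.2 over the 6 lists and a fold of 2.6 to 6.7, the lowest folds among these 6 domains. Within its own list that peak stood at percentile 87.3, 95.5 and 98.1 by −log10 p in controls and at 90.5, 95.9 and 93.8 in knockouts.

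The remaining 4 of the 10 widest measured between 34992 and 42126 bp. At 3 of them the genotypes overlapped, on chromosome 11 (117207053 to 117249178), chromosome 11 (52140191 to 52175640) and chromosome 6 (99346502 to 99381493), with differences of means between -0.63 and 2.12 percentage points. The fourth, on chromosome 12 (100957711 to 100995620, 37910 bp), was covered to 93.2, 96.7 and 97.0% in controls against 87.8, 93.0 and 89.8% in knockouts. There each knockout lay below each control, with means of 95.6% ± 2.12 and 90.2% ± 2.64 (SD, n = 3 each). The nearest values were 35324 covered bases in control 1 and 35274 in knockout 2. Every knockout lay below every control also at 9.55% of all domains and 16.3% of all regions shared by the 3 control lists, so nothing is read from this domain.

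The domains were almost fully acetylated in every library, knockouts included. Over all 377 together, peaks covered 91.6, 97.2 and 97.1% of the bases in controls against 92.0, 97.4 and 94.4% in knockouts. The means were 95.3% ± 3.23 in controls against 94.6% ± 2.73 in knockouts (SD, n = 3 each), a difference of -0.705 percentage points that is smaller than either spread. The members were chosen on the control values, which by itself favours the controls, so this difference was not tested. It was 0.399, 0.208 and -2.72 points between samples of replicate numbers 1, 2 and 3, and between -2.57 (without control 1) and 0.61 (without knockout 1) when 1 library was left out, with -2.12 without knockout 2. Bases under peaks in all 6 libraries made up 85.2% of the domains.

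Narrower regions shared by the 3 control lists, chosen on controls in the same way, were covered less in both genotypes. Mean covered shares were 91.6% ± 3.95 in controls against 89.4% ± 3.53 in knockouts for 1287 regions of 5000 bp up to the limit (SD, n = 3 each). For 5523 regions of 2000 to 5000 bp they were 85.8% ± 0.759 against 79.2% ± 5.57, and for 11758 regions under 2000 bp 78.6% ± 1.85 against 64.0% ± 11.3 (SD, n = 3 each). A peak in every knockout was found at all 377 domains but at 99.4, 93.5 and 63.8% of these 3 classes. The gap between genotypes was thus smallest at the domains, and as width enters both the choice of regions and the share, this is a description with no test.

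**Figure D1:**
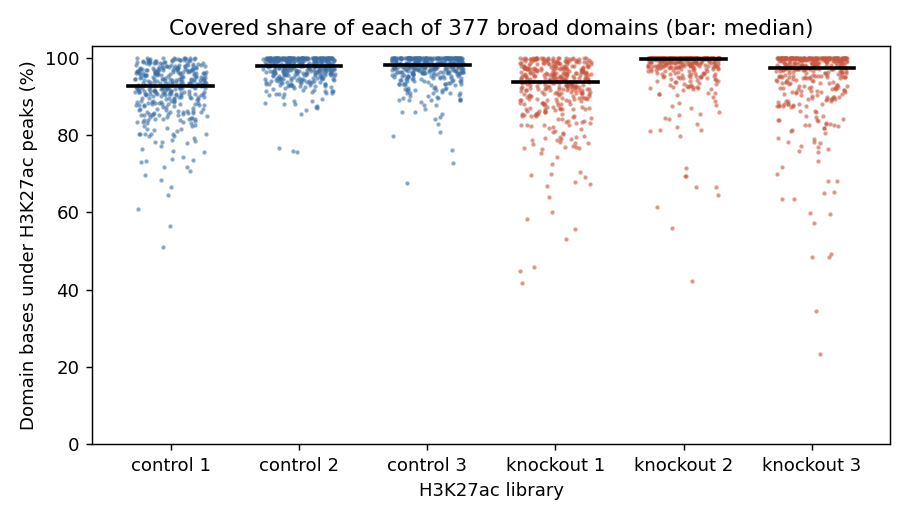
Covered share of each domain (y axis, percentage of its bases under peaks) in each H3K27ac library (x axis); each point is 1 of 377 domains and each black bar a median. The medians run from 92.7% in control 1 to 99.5% in knockout 2, and the low tail reaches 51.1% in controls against 23.3% in the knockouts.

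Replicate 1 stood lower in both genotypes. The median covered share was 92.7, 97.9 and 98.0% in controls against 93.7, 99.5 and 97.4% in knockouts. Control 1 was the lowest control at 292 domains, and knockout 1 the lowest knockout at 278. Of the 377 domains, 253, 362 and 353 were covered to at least 90% in controls 1 to 3, and 261, 351 and 299 in knockouts. Control 1 also had the highest fragment level of the controls, and knockout 1 was level with knockout 2. The part of depth in these shares was not tested. Without both libraries of replicate 1, the mean share was 97.2% in controls against 95.9% in knockouts, a difference of -1.26 points.

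How far a domain was broken into separate peaks differed more between libraries than its covered share did. A domain was a single peak at 89, 205 and 192 of 377 places in controls against 112, 305 and 221 in knockouts. Only 37 domains were a single peak in all 6 libraries, while 181 were covered to at least 90% in all 6. The median of the widest single peak in a domain was 9157, 11781 and 11608 bp in controls against 9860, 12544 and 11806 bp in knockouts. At 33 domains no control had a single peak of 10000 bp, so that the width came from peaks of different controls joined by the merge. Domains broken into several peaks could thus still be nearly full.

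Most domains held some of the strongest peaks of a library. The strongest peak in a domain lay in the top 10% of its own list by the authors' −log10 p at 305, 337 and 346 of 377 domains in controls against 300, 335 and 328 in knockouts. The median −log10 p of these peaks was 129, 148 and 190 in controls against 157, 257 and 149 in knockouts. Over all peaks of the same lists the medians were 15.4, 14.96 and 16.2 for controls and 18.0, 16.9 and 13.8 for knockouts. Their median fold over local background was 7.82, 11.98 and 13.3 in controls against 9.83, 11.9 and 10.5 in knockouts, while the list medians lay between 4.33 and 5.26. A long peak has more chances of a high summit, and the −log10 p grows with depth, so these values describe each list and are not compared across lists. The summit lay at a median of 24.2 to 25.1% of the domain's width from its nearer edge in all 6 libraries, where a point placed evenly along the domain has its median at 25%.

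Many domains had a neighbour. Of the 377, 120 lay within 50 kb of another, in 51 runs, and 14 runs held 3 or 4 domains. On chromosome 12 (107881528 to 107964903), 4 domains lay in 83376 bp, and peaks covered 92.1, 95.1 and 95.8% of the stretch in controls against 93.8, 98.7 and 98.5% in knockouts. The stretch was in 14, 10 and 8 peaks in the controls and in 12, 3 and 3 peaks in the knockouts. Its widest single peak measured 11835, 21028 and 16165 bp in controls against 16535, 33377 and 70686 bp in knockouts. Knockouts 2 and 3 thus had fewer and longer peaks there than any control, while knockout 1 lay within the range of the controls in peak number and widest peak.

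Runs of 4 domains also lay on chromosome 19 (10691823 to 10809246), chromosome 2 (158506956 to 158588015) and chromosome 6 (48655349 to 48749948). Covered shares of the chromosome 19 stretch were 81.6, 87.6 and 87.4% in controls against 81.8, 95.8 and 93.4% in knockouts. On chromosome 6 they were 76.5, 85.2 and 84.6% in controls against 77.3, 89.2 and 89.2% in knockouts. In both stretches knockouts 2 and 3 exceeded every control and knockout 1 did not. On chromosome 2 the shares were 78.1, 87.9 and 90.8% in controls against 80.7, 94.4 and 89.7% in knockouts, where only knockout 2 exceeded every control. The widest gap between genotypes among the 14 runs was on chromosome 4 (32274875 to 32345668), a run of 3 domains singled out after its values were seen. Peaks covered 56.6, 72.9 and 73.0% of it in controls against 68.0, 95.8 and 90.6% in knockouts, so that the groups overlapped only through knockout 1. The 3 domains themselves were covered to between 83.8 and 100% in all libraries, so most of the difference lay between them. At 1 of the 14 runs, on chromosome 7 (98134986 to 98238889), every knockout exceeded every control, with 51.4, 54.9 and 56.1% in controls against 59.0, 68.4 and 61.4% in knockouts. Every knockout was above every control also in 9.63% of all 10 kb bins of the genome with enough peaks and in 3.91% of shared control regions, so nothing is read from this 1 run.

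Applying the selection rule to the knockout lists gave more domains than in the controls. The 3 knockout lists yielded 539 domains, with a median width of 13847 bp and 9.22 Mb in all, against 377 and 5.86 Mb. With any 2 of the 3 lists, the controls gave 313 to 358 domains and the knockouts 384 to 527. These pairs share lists, so the ranges are no spread over replicates, and nothing is read from their separation. Single peaks of 10000 bp or wider numbered 168, 282 and 280 in controls against 202, 493 and 360 in knockouts, where knockout 1 lay within the controls. The shortest peak of a list measured 232, 246 and 234 bp for controls against 232, 279 and 264 bp for knockouts, higher in the same knockouts 2 and 3. The part of this shortest length and of the background library in the domain counts was not tested.

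Of the 377 control domains, 344 (91.2%) overlapped a knockout domain, and 327 of 539 knockout domains (60.7%) overlapped a control domain. The 212 knockout domains without a control domain had a median width of 11877.5 bp, and none lacked a control region: the widest control region under them had a median of 7031.5 bp, and at 178 of them it reached 5000 bp. The 33 control domains without a knockout domain had a median width of 11229 bp, and the widest knockout region under them a median of 7887 bp. Differences between the sets were therefore mostly of regions on either side of the width limit. In 15 knockout domains 2 or more control domains were joined, 32 in all. The widest knockout domain, 88860 bp on chromosome 12 (107881650 to 107970509), took in the 4 control domains of that run.

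Some knockout peaks ran past the edges, which the controls set. Over both edges of all domains, peaks covered 67.4, 89.9 and 91.0% of the positions 250 bp inside the edge in controls against 70.2, 86.7 and 77.2% in knockouts. Just outside, at 0 bp, the controls are at 0% by construction, since a domain ends where no control has a peak. Knockouts 1 to 3 had peaks at 17.4, 55.4 and 42.7% of edges there, and at 6.90, 38.1 and 26.9% at 250 bp. At 2000 bp outside, covered shares were 43.2, 48.5 and 49.9% in controls against 42.8, 56.4 and 48.9% in knockouts. By 2000 bp from the edge knockouts 1 and 3 were within the range of the controls or just under it, and knockout 2 was higher. Because the controls set the edge, these values were not tested.

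**Figure D2:**
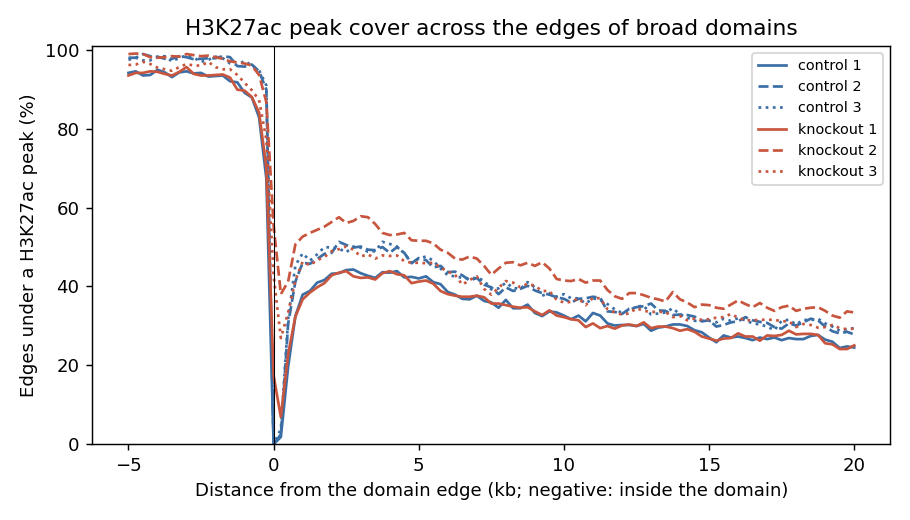
Share of domain edges under a H3K27ac peak (y axis, percent of the edges of 377 domains) by distance from the edge (x axis, kb, negative inside), 1 line per library. Controls drop to 0% at the edge because the rule ends a domain there; knockout 2 stays at 55.4% at the edge and highest at 2000 bp outside it, at 56.4%.

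Domain by domain, most shares barely differed between genotypes. The difference of mean covered share, knockouts minus controls, had a median of 0.64 percentage points and quartiles of -1.68 and 2.12, and 289 of 377 domains (76.7%) lay within 5 points. For comparison, the covered share of a domain spanned a median of 6.97 points among the 3 controls and 5.55 among the 3 knockouts. The tail was longer downward, with 27 domains lower by 10 points or more and 2 higher by as much. Domains nearly full in controls have little room to rise by 10 points, and no share of other shared regions passing this cut is given here. At 36 domains (9.55%) every knockout had fewer covered bases than every control, and at 14 (3.71%) more. Among all 18945 regions shared by the 3 control lists, which were chosen on controls in the same way, these shares were 16.3% and 3.91%. Nothing is read from these counts, because the selection used the control side of the contrast. Of the 27 domains lower by 10 points or more, 21 were among the 36, and 7 still overlapped a knockout domain.

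**Figure D3:**
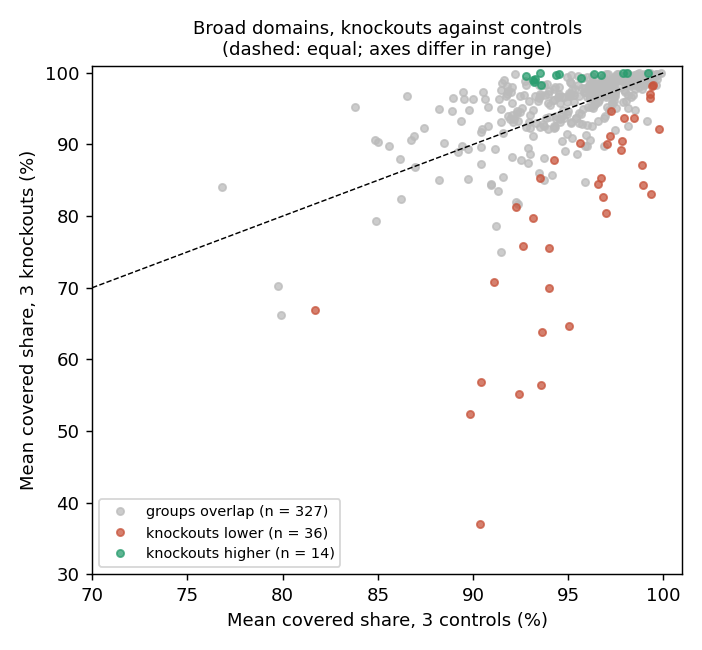
Mean covered share in 3 knockouts (y axis, percent) against 3 controls (x axis, percent) for 377 domains; colours mark domains where each knockout lies below (36) or above (14) each control in covered bases, and grey marks 327 where the groups overlap. Most points lie near the line of equal shares, and the lower tail reaches 37.0% in the knockouts.

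Of the 5 domains with the largest differences downward, all were narrow and remained under peaks in part in every knockout. The largest was on chromosome 1 (93967637 to 93977730, 10094 bp), covered to 96.8, 94.6 and 79.8% in controls 1 to 3 and to 45.7, 42.1 and 23.3% in knockouts, means of 90.4% ± 9.21 and 37.0% ± 12.1 (SD, n = 3 each). Each knockout lay below each control, as at 36 of the 377 domains. This domain was picked for its difference among regions chosen on the controls, so nothing is read from the gap. The strongest peak there had a −log10 p of 38.0, 76.9 and 61.4 in controls and of 32.4, 30.7 and 19.8 in knockouts. Its fold was 5.62, 18.1 and 15.3 in controls and 7.87, 7.34 and 6.84 in knockouts. These values describe each list and are not compared across lists. In this domain 2473 bases lay under peaks of all controls and of no knockout, the longest run of them 659 bp. Single knockouts had longer gaps. Counted from the left edge, knockout 1 had no peak between 4264 and 6081 bp, knockout 2 none between 2852 and 6180 bp, and knockout 3 none before 6614 bp.

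On chromosome 15 (36445799 to 36457173, 11375 bp) the covered shares were 86.7, 93.7 and 89.1% in controls against 58.3, 64.6 and 34.3% in knockouts. On chromosome 11 (108089307 to 108099786, 10480 bp) they were 89.2, 91.3 and 96.7% in controls against 55.5, 61.5 and 48.3% in knockouts. On chromosome 10 (39339954 to 39350139, 10186 bp) they were 90.5, 93.0 and 87.7% in controls against 44.8, 66.4 and 59.5% in knockouts. In each of these 3 domains, picked in the same way, the groups were apart by more than 20 points, and nothing is read from this. Controls had 2 or 3 peaks and knockouts 3 to 5 on chromosomes 11 and 15, and on chromosome 10 controls had 2 to 4 and knockouts 4 to 6.

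The domain on chromosome 17 (8451815 to 8463899, 12085 bp) differed mostly in 1 block. It was covered to 93.5, 97.7 and 89.5% in controls against 63.9, 55.9 and 49.3% in knockouts, means of 93.6% ± 4.11 and 56.4% ± 7.30 (SD, n = 3 each). Of its bases, 3054 were under peaks in all controls and in no knockout, and 2321 of these formed 1 run from 8453395 to 8455715. Counted from the left edge, the stretch from 5859 to 11247 bp was covered in all 6 libraries. The first 4166 bp were bare in knockouts 2 and 3 and held 1 peak of knockout 1, from 474 to 1215 bp.

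**Figure D4:**
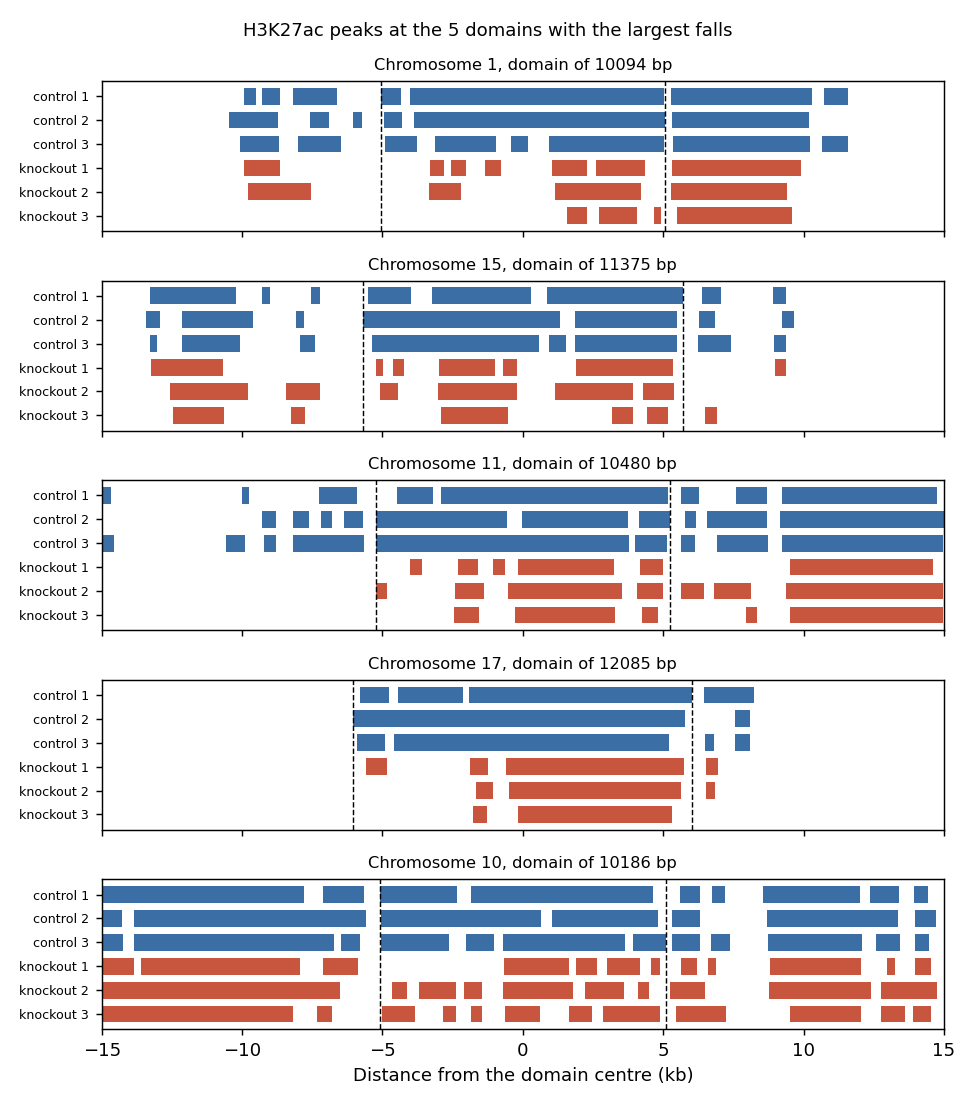
H3K27ac peaks (bars) of 3 controls (blue) and 3 knockouts (red) around the 5 domains with the largest downward differences; x axis, distance from the domain centre in kb, with dashed lines at the domain edges. On chromosome 17 knockout peaks begin at least 4166 bp from the left edge apart from 1 peak of knockout 1, and on chromosomes 1, 10, 11 and 15 each knockout has 2 to 6 peaks that leave part of the domain bare.

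A test over the whole genome called few places inside the domains. Covered bases in 10 kb bins were compared between genotypes with limma as log2(covered bases + 100), over 18817 bins, of which 588 had 5000 bp or more in a domain. Of those 588, 6 fell and 0 rose at an adjusted p under 0.05, or 1.02% and 0%, where 2.22% of all bins fell and 0.585% rose. Within the domains, 32 bins (5.44%) were lower and 2 (0.34%) higher at an unadjusted p under 0.05, where these shares were 11.0% and 5.93% over all bins. The median log2 change was -0.01 in the bins of the domains and -0.05 over all bins. Every knockout lay below every control in 37 of the 588 (6.29%) and above in 39 (6.63%), where these shares were 12.5% and 9.63% over all bins. Since a bin in a domain is nearly full in controls, it can fall but has little room to rise, and nothing is read from these shares.

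The 6 called bins lay in 6 different domains, 4 of them described above. The bin on chromosome 17 from 8450001 had 7781 ± 395 covered bases in controls against 3395 ± 671 in knockouts (SD, n = 3 each). This is a difference of -1.22 in log2, with SE 0.146 and limma adjusted p = 0.0266. The bins on chromosome 15 from 36450001, chromosome 1 from 93970001 and chromosome 11 from 108090001 changed by -0.85, -0.84 and -0.73 (limma adjusted p = 0.035, 0.0328 and 0.0266). The other 2 were on chromosome 9 from 88210001, with 9373 ± 600 bases in controls against 5958 ± 859 in knockouts, and on chromosome 7 from 142020001, with 7517 ± 544 and 4977 ± 1135 (SD, n = 3 each). Their log2 changes were -0.68 and -0.64 (limma adjusted p = 0.0326 and 0.0469). In all 6 bins every knockout lay below every control. The domains were chosen on the control lists, which favours falls over rises in these bins, so the p-values are no independent support. None of the 6 stayed called without control 1, 2 or 3 or without knockout 2 (limma adjusted p between 0.094 and 0.166), and without knockout 3 only that on chromosome 11 did (0.0414). A pseudocount of 10 bases also ended all 6 calls (limma adjusted p between 0.0593 and 0.0607), as did leaving out both libraries of replicate 1 (between 0.0526 and 0.0889). In the refits without 1 library all log2 changes stayed negative, between -1.35 and -0.52 over the 6 bins. The bin on chromosome 15, for example, lay between -0.92 and -0.69 in these refits, against -0.85 with all libraries.

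The domains of the bins on chromosomes 9 and 7 were also covered less in knockouts as a whole. That on chromosome 9 (88208024 to 88219924, 11901 bp) was covered to 89.6, 96.8 and 98.6% in controls against 67.2, 69.4 and 57.3% in knockouts. That on chromosome 7 (142022893 to 142038662, 15770 bp) was covered to 95.9, 96.9 and 89.2% in controls against 79.2, 84.3 and 63.3% in knockouts.

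Upward differences were small and most rested on control 1. The 5 largest lay between 7.60 and 11.4 percentage points, and at all 5 the groups overlapped. The largest, on chromosome 17 (52132625 to 52143165, 10541 bp), had 56.5, 99.0 and 96.0% covered in controls against 85.5, 100 and 100% in knockouts. On chromosome 5 (124165309 to 124175612) the shares were 64.5, 96.4 and 98.8% in controls against 90.8, 100 and 99.4% in knockouts. Without control 1 these differences turned to -2.33 and -0.859 points. The next, on chromosome 1 (165669645 to 165683204), went from 7.84 to 0.0234 points without it. The other two, on chromosome 4 (32274875 to 32285513) and chromosome 11 (99033114 to 99047846), remained above 0 without any 1 library, at 3.43 to 11.4 and 1.30 to 13.1 points.

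The 14 domains at which every knockout had more covered bases than every control differed little in size. Their mean differences lay between 0.798 and 6.8 points, with controls already between 84.2 and 99.97% covered. An example is chromosome 9 (106047365 to 106059889, 12525 bp), with 96.2, 94.3 and 90.2% in controls and full cover in each knockout. Another is chromosome 11 (57540983 to 57570140, 29158 bp), with 87.8, 95.6 and 96.4% in controls against 97.9, 100 and 99.4% in knockouts. Among the 59 domains of 20000 bp or wider, every knockout was lower at 6 and higher at 2, next to the 16.3% and 3.91% of shared regions given above, from which nothing is read. By 10 points or more, 2 of the 59 were lower, with no share of other shared regions beside it, and nothing is read from this either.

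No H3K27me3 peak lay in a domain, and few lay near one. None of the 377 held a base under a H3K27me3 peak in any of the 4 lists, and such overlap was rare also among the 18568 narrower shared regions, at 32 (0.172%). The list of H3K27me3 control 1 was short and weak, with 4.89 Mb under peaks and −log10 p from 2.015 to 7.21. The lists of control 2, knockout 1 and knockout 2 held 40.1, 30.4 and 62.0 Mb and started at 9.02, 9.005 and 9.007. No peak of control 1 reached the lowest −log10 p of the other lists, so its counts and distances are not on the same footing as theirs. The nearest H3K27me3 peak lay at a median of 201 and 89.5 kb in controls 1 and 2 and of 126 and 85.2 kb in knockouts 1 and 2. A peak within 50 kb was found at 43 and 90 domains in controls against 59 and 97 in the knockouts, an order that follows the length of the lists. Control 2 and knockout 2 of H3K27me3 and replicate 1 of H3K27ac came from chimeras of the same numbers.

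In the 3 longer H3K27me3 lists the share of regions with H3K27me3 within 10 kb was lowest among the broad domains and highest among the narrowest regions, while in control 1 it was 0.531% of domains and 0.466% of shared regions of 5000 bp or more. In control 2 this was the case at 5 of 377 domains (1.33%), 25 of 1287 shared regions of 5000 bp or more (1.94%), 247 of 5523 of 2000 bp or more (4.47%) and 933 of 11758 under 2000 bp (7.94%). In knockout 2 the shares were 2.39, 2.72, 6.01 and 9.58% in the same order. Within 50 kb they were 23.9, 23.6, 30.8 and 34.2% in control 2 and 25.7, 26.6, 33.6 and 37.1% in knockout 2. The domains were thus close to the regions of 5000 bp or more and below the narrower ones in both libraries. Regions are not independent samples, and these shares are given as a description, with no test.

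**Figure D5:**
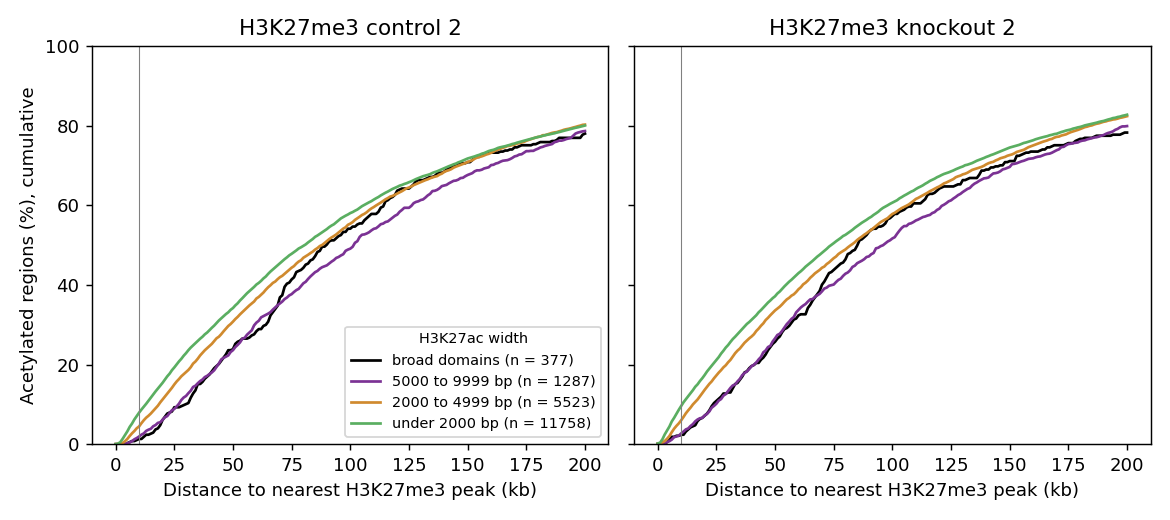
Cumulative share of acetylated regions (y axis, percent) with a H3K27me3 peak within a given distance (x axis, kb) in H3K27me3 control 2 (left) and knockout 2 (right), for broad domains and 3 classes of narrower shared regions; the grey line marks 10 kb. At that line the domains stand at 1.33 and 2.39%, and regions under 2000 bp at 7.94 and 9.58%.

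Only 9 domains had H3K27me3 within 10 kb in any list. The nearest was on chromosome 7 (101103850 to 101116908), 1115 bp from a peak of knockout 2 and 11466, 12395 and 32653 bp from peaks of knockout 1, control 2 and control 1. Its H3K27ac cover was uneven, with 51.1, 88.7 and 100% in controls against 41.7, 85.0 and 71.7% in knockouts. On chromosome 12 (103398861 to 103411265) a H3K27me3 peak lay at 6754 and 4906 bp in controls 1 and 2 and at 4984 and 3705 bp in knockouts 1 and 2, the one domain of the 9 within 10 kb in all 4 lists. That domain kept 96.3, 91.0 and 82.7% cover in controls against 93.8, 100 and 95.5% in knockouts. A domain on chromosome 7 (142556626 to 142571630) had the most H3K27me3 around it by the sum over the 4 lists and in each knockout, though not in either control, with 1429 and 16881 bases within 50 kb in controls 1 and 2, against 12394 and 28234 for knockouts 1 and 2.

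The other 6 of the 9 were the called domains on chromosomes 9 and 17, and domains on chromosome 2 (9873646 to 9883770), chromosome 7 (30731287 to 30744124) and chromosome 11 (87632595 to 87646588 and 94879554 to 94892181). At the called domain on chromosome 9 the nearest H3K27me3 peak was 585195 and 47367 bp away in controls 1 and 2 and 6381 and 5304 bp away in knockouts 1 and 2. At that on chromosome 17 it was 97084 and 93567 bp away in controls against 28208 and 4661 bp away in the knockouts. These near knockout peaks were weak, with −log10 p of 11.3 and 10.5 on chromosome 9 and of 10.0 and 9.53 on chromosome 17, where the knockout lists start at 9.005 and 9.007. On chromosome 9 the peaks of both knockouts lay on the left of the domain and did not overlap each other, and on chromosome 17 they lay on opposite sides. At the called domains on chromosomes 1, 7, 11 and 15 no knockout peak lay within 30 kb, and the distances in both knockouts were 350435 and 350445, 36185 and 36045, 217207 and 204201, and 283511 and 97496 bp. At 2 of the 6, then, the nearest H3K27me3 peak was closer in both knockouts than in both controls. The same held at 80 of the 377 domains (21.2%) and at 25.3% of all 18945 shared regions, with the list of control 1 being short, and nothing is read from it.

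No H3K27me3 change was called around the domains. Of 203 tested bins within 50 kb of a domain, limma called 0 lower and 0 higher, where 0.0436% of 20626 bins were called lower and 0.252% higher. At an unadjusted p under 0.05, 25 were lower (12.3%) and 7 higher (3.45%), where these shares were 3.21% and 7.49% over all bins. The median log2 change was -0.22 near the domains and 0.78 over all bins, on the scale of log2(covered bases + 100) after centring. Without centring these medians were 0.82 and 1.82, so the direction near the domains depends on the scaling. It also turned on 1 library, with a centred median near the domains of 0.50 without knockout 1 and between -0.51 and -0.11 without any other library. In each of these fits the median near the domains lay below that over all bins. The median over all bins was 2.26 with a pseudocount of 10 bases and -0.03 with 1000, and near the domains -0.14 and -0.35. With these pseudocounts 8 and 22 of the 203 bins were lower at a limma unadjusted p under 0.05, where 262 and 577 of all 20626 were. Without centring they numbered 0 near the domains and 2 over all bins. Nothing is read from these shares and medians, as the list of control 1 also starts at a lower −log10 p. Without control 2, which leaves the short list as the only control, 30 were called lower (14.8%) and 32 higher (15.8%), where 3.51% and 26.3% of all bins were, and without knockout 1 it was 1 and 1.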

How the data were processed

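Peak lists of 6 H3K27ac and 4 H3K27me3 CUT&Tag libraries were used, 1 list per library, so the authors called peaks per sample. Per the submitters' processing notes the tools were Bowtie2 2.2.4, deepTools 3.5.1, MACS2, ChIPseeker 1.30.3 and HOMER 4.11, with build mm39. The sources used here do not give settings, background library or duplicate handling. Each deposited row holds start, end, summit offset, the authors' score (10 times the −log10 p without decimals), the fold over local background as a ratio, and p and q values as −log10. The fold and −log10 values are the authors' own and were used only within a list, apart from the −log10 p range of the H3K27me3 lists.

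Peaks on chromosomes 1 to 19 were merged and covered bases counted with Python 3.11.15. H3K27ac bins of 10 kb covered in at least 3 libraries, and H3K27me3 bins covered in at least 2, were centred on the median of bins covered in every library. They were tested with limma 3.58.1 in R 4.3.3 (trended, robust variances, no block, Benjamini-Hochberg over all bins). Scripts were tested on simulated data. Depth was read back from 3000 peaks per H3K27ac list by matching fold and −log10 p to a Poisson model with whole fragments.

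The domains and lists were chosen with earlier results of these data known. Named domains were the 10 widest, those nearest the width limit, the 5 largest differences in each direction and those with H3K27me3 within 10 kb. Runs of neighbours and the examples among the 14 were chosen after their values were seen. The only gene table at hand is of another build, so the planned gene lists and marker genes were not used. Alternatives were other pseudocounts, filters, scalings, peak thresholds and widths, a replicate block, and leaving out libraries.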

Additional observations from a re-analysis of the deposited data

How the results depend on the processing

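Leaving out both libraries of replicate 1 was chosen after seeing the data. The number of domains was 377 also with peaks of −log10 q of 5 or more and with 50% of each region covered in each control. It was 1499 when peaks within 3000 bp were merged and 135 at 15000 bp or wider, both by construction, and between 313 and 358 without 1 control. The difference in covered share was between -2.57 and 0.61 points without 1 library, -0.762 with the stricter peaks, and 0.169 as a share of all bases under peaks in a library, so its direction was not stable.

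Bins of the domains called lower numbered 6, and 9, 5, 9 and 4 with a pseudocount of 1000 bases, no filter, quantile normalization and merged regions. They numbered 0 with a pseudocount of 10 bases, 0 with the replicate block, 0 without both libraries of replicate 1, and between 0 and 8 without 1 library. Bins called higher numbered 1 with quantile normalization and between 0 and 0 without 1 library. For H3K27me3 near the domains, bins called lower were between 0 and 30 and higher between 0 and 32 without 1 library, and 0 and 0 with the replicate block. Domains with H3K27me3 within 10 kb numbered 9, between 6 and 9 without 1 library, and 105 within 50 kb. The cause of the changes in called bins was not tested.

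Whether replicate numbers pair the H3K27ac samples is not settled. Same-numbered H3K27ac samples carry the same chimera number in their titles. Their deviations from group means correlated across bins at 0.24, 0.05 and 0.01 for numbers 1, 2 and 3. Control 1 correlated best with knockout 1, and control 2 with knockout 3 (0.18).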

Other observations

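Chromosome X was outside the rule. Merging the control lists there at the same width gave 7 regions with a peak in each control. Of these, 5 were covered to between 80.8 and 100% in all 6 libraries, the widest at 7431118 to 7457054 with 95.0, 99.8 and 99.1% in controls against 95.4, 100 and 100% in knockouts. The other two lay near the end of the chromosome, at 169263405 to 169275823 and 169285736 to 169304830. They were covered to 85.5, 98.0 and 91.1% and to 96.4, 98.4 and 89.7% in controls, and had 0 bases under peaks in each knockout. Why no knockout had a peak there was not tested, and a missing peak does not show that the mark was lost. On chromosomes 1 to 19, no domain was without a peak in any knockout, and the lowest share in a knockout was 23.3%.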
